A study of Mus musculus with 6 samples.

Results

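The genes described here are 8 markers and ion channel genes of the zona glomerulosa, the outer layer of the adrenal cortex: Dab2, Vsnl1, Kcnk3, Kcnk9, Kcnj5, Cacna1h, Cacna1d and Clcn2. They were chosen by name, each matched 1 locus of its own among 53103 named loci, and all 8 passed the filter on low counts. RNA of whole adrenal glands was sequenced in 3 wild-type (WT) samples and 3 samples of the Armc5(-/-) genotype (knockout, KO), all from female mice aged 30 weeks on a 129 sv X CD1 background. The labels do not say which part of Armc5 was deleted, or whether the samples are separate animals. The p-values therefore cover only the spread among these libraries, which may be technical. Total counts per library ran from 70547288 to 130573434. ARMC5 brings substrates to a ubiquitin ligase built on a cullin, and its gene is mutated in human macronodular adrenal hyperplasia. Armc5 itself had 2763, 3263 and 2233 counts in WT and 395, 269 and 473 in KO, 7.47-fold lower (log2 fold change -2.90, SE 0.10, edgeR adjusted p = 0.00041).

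Zona glomerulosa cells make aldosterone in answer to angiotensin II and to potassium in the blood. At rest, potassium leak channels hold their membrane voltage negative. When these channels close, the membrane depolarises, calcium enters through voltage-gated channels, and calcium signalling raises the transcription of Cyp11b2, the aldosterone synthase gene. In humans, mutations of KCNJ5, CACNA1D, CACNA1H and CLCN2 cause aldosterone excess.

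None of the 8 members was called, that is, had an edgeR quasi-likelihood adjusted p under 0.05 over 21358 tested loci, of which 1.84% were called (1.41% higher and 0.431% lower in KO). Of the 8, 7 had a log2 fold change above 0 and 1 below, with a median of 0.39 against -0.0063 over all tested loci. In 5 members the WT and KO libraries did not overlap (62.5%), which 30.5% of the tested loci showed: Dab2, Kcnj5, Cacna1h and Cacna1d were higher in each KO library than in each WT library, and Kcnk3 was lower. Before adjustment, p was under 0.05 for 4 members, Kcnj5, Cacna1d, Dab2 and Kcnk3, and for 22.2% of all tested loci. DESeq2, which called 12.3% of the loci, called those same 4, and limma-voom with sample quality weights, which called 7.04%, called Cacna1d. Among counts in named loci, the mitochondrial share was 14.8% to 17.6% for WT libraries and 13.2% to 13.7% for KO libraries, which did not overlap, and the part of this in the members' values was not tested. RNA from whole glands cannot tell fewer cells of a type from less RNA per cell.

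**Figure D1:**
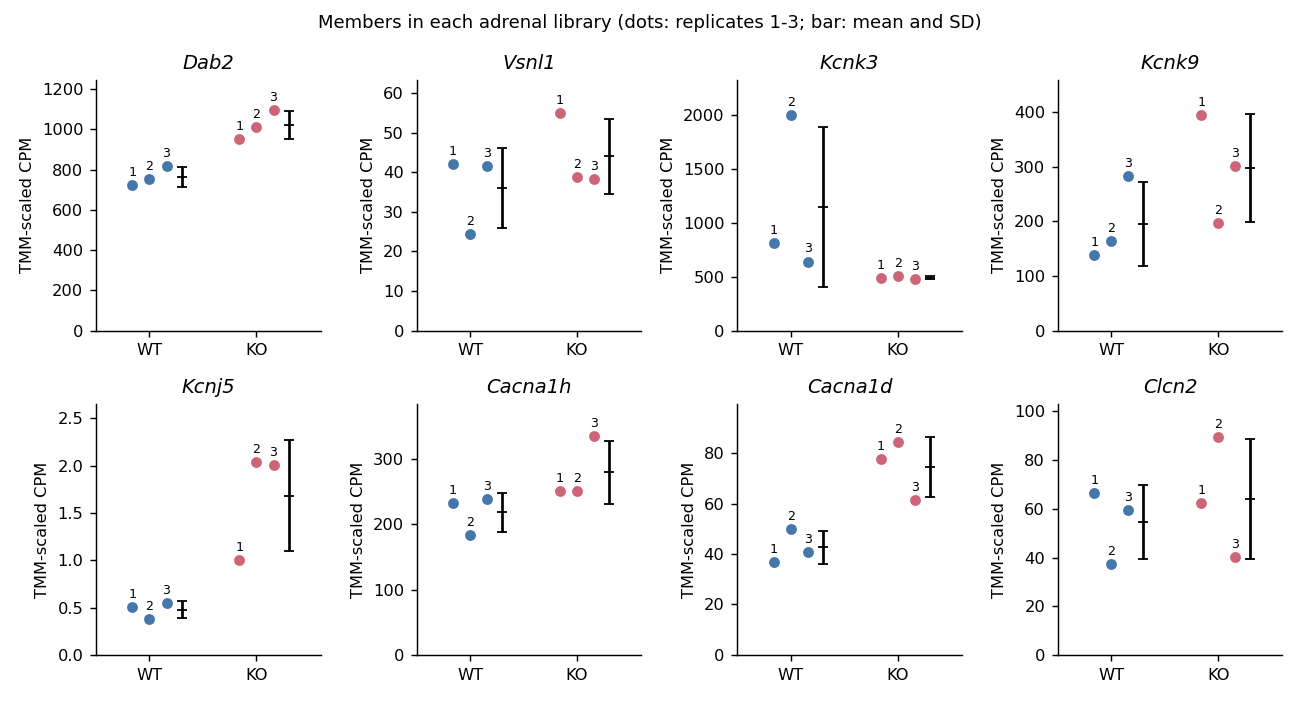
TMM-scaled read counts relative to library size (CPM) of the 8 members in each library, with dots for replicates 1 to 3 of WT (blue) and KO (red) and a bar for the mean and SD. Kcnj5, Cacna1d, Dab2 and Cacna1h do not overlap between the groups, with KO higher, and Kcnk3 is at 491, 502 and 481 CPM in KO below all WT libraries.

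Promoter windows were at hand in RefSeq (GRCm38.p6) for 5 of the 8 members, each running from 250 bases before to 50 after an annotated transcript start. The windows of Kcnj5, Cacna1d and Dab2 are printed because these 3 genes had KO libraries above all WT libraries and an unadjusted p under 0.05. Capitals mark GC boxes, the letters GGGCGG read on either strand, which bind the factor Sp1. The Kcnj5 window lies at chr9:32344295-32344594 on the minus strand and holds 2 such boxes. Cacna1d has an upstream start on the minus strand at chr14:30491107-30491406 and an internal one at chr14:30353437-30353736. The Dab2 window printed, on the plus strand at chr15:6299539-6299838, is that of the start 1 base from the start of the deposited locus.
Kcnj5: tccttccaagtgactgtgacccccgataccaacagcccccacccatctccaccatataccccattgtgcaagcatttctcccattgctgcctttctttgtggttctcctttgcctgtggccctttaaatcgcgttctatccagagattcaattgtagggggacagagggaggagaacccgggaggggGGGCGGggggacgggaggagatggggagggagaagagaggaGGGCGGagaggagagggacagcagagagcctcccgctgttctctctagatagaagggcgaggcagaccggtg
Cacna1d upstream start: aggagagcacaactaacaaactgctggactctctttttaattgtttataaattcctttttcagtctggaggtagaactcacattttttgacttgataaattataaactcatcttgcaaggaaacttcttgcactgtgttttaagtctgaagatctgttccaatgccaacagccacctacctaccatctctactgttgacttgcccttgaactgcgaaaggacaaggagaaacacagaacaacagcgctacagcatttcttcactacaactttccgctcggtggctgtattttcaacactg
Cacna1d internal start: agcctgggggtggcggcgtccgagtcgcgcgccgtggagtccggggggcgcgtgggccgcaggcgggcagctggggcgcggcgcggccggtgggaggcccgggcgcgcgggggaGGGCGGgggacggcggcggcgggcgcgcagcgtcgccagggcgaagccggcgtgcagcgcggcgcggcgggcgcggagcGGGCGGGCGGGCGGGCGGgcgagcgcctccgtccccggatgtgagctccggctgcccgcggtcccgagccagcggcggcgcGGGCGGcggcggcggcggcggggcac
Dab2: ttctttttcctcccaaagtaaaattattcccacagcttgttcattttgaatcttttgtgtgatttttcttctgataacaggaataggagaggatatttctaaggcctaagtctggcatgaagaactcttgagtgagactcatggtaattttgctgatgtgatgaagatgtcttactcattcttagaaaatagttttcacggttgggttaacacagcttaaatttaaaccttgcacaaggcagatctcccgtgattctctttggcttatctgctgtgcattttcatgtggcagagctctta

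The windows differ in base composition, with 58.3% G or C in Kcnj5, 40.3% and 87.3% in the upstream and internal windows of Cacna1d, and 37.7% in the printed window of Dab2. A further Dab2 window, at an internal start (chr15:6386498-6386797), is 59.3% G or C and holds no GC box. GC boxes were found in 35.7% of 32851 windows of that length, and 6 matches, some of them overlapping each other, lie in the internal Cacna1d window. The half-site AAGGTCA, read by the steroidogenic factor NR5A1 and by NR4A receptors, was searched on both strands and is in 4.72% of all windows, and the cyclic AMP response element TGACGTCA is in 1.79%. Neither is in the windows printed above, nor in those of Vsnl1 and Clcn2. No matched window was at hand for Kcnk3, Kcnk9 or Cacna1h.

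Levels of different genes were compared as CPM (read counts scaled to library size) per kilobase of transcribed length, as that length stands in the deposited table. In WT the mean levels were 63.9 ± 41.2 CPM per kilobase for Kcnk3 and 58.0 ± 3.75 for Dab2 (SD, n = 3 each), and these overlapped. Within a library, Kcnk3 was above Dab2 in only 1 of the 3 WT libraries, replicate 2 (111 against 57.2 CPM per kilobase). Cacna1h followed at 20.96 ± 2.88, Vsnl1 at 18.4 ± 5.15 and Kcnk9 at 15.3 ± 6.05, and the ranges of neighbours in this order overlapped, as did Kcnk9 and Clcn2 at 9.04 ± 2.52. Compared within WT libraries, Cacna1h was above Vsnl1 in all 3, Vsnl1 above Kcnk9 in 1 and Kcnk9 above Clcn2 in 2. Cacna1d at 2.69 ± 0.424 lay below Clcn2 in every WT library, and Kcnj5 at 0.102 ± 0.0187 below Cacna1d. In KO the mean of Dab2 was 77.5 ± 5.35, above Kcnk3 at 27.3 ± 0.602 with no overlap, while Kcnk3, Cacna1h, Kcnk9 and Vsnl1 overlapped their neighbours in the order. Dab2 stood between the 97.7th and 99.0th percentile of the tested loci in every library, and Kcnj5 between the 8.66th and the 25.9th.

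**Figure D2:**
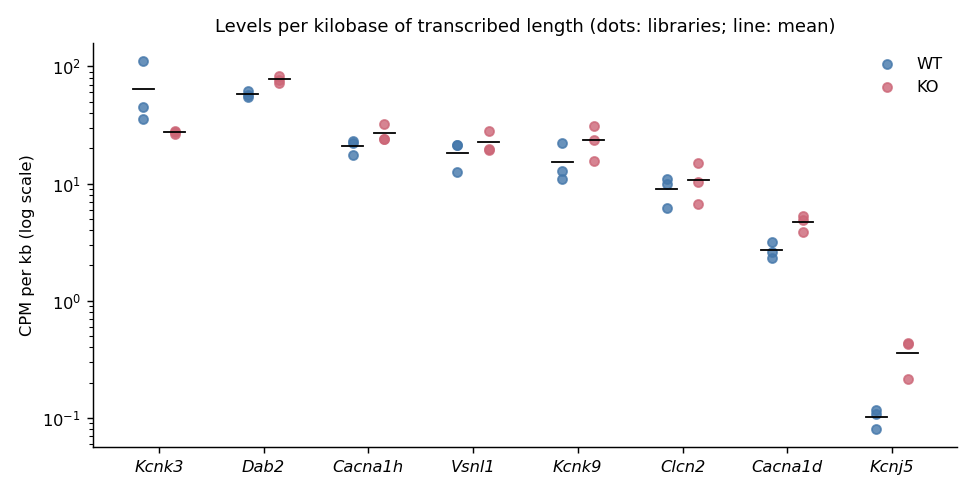
Level of each member in CPM per kilobase of transcribed length on a log scale, with a dot for each library, a line for each group mean, WT in blue and KO in red. Dab2 and Kcnk3 have the highest group means and Kcnj5, at 0.102 CPM per kilobase in WT and 0.359 in KO, the lowest.

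The leak channels Kcnk3 and Kcnk9 encode potassium channels of the K2P (tandem-pore) family whose closure depolarises the glomerulosa cell. Kcnk3 (GRCm38 chromosome 5, 30588170 to 30710183) was at 809, 1999.9 and 641 CPM in WT replicates 1, 2 and 3 and at 491, 502 and 481 CPM in KO. All KO libraries lay below the WT libraries, the KO values were close together, and WT replicate 2 stood apart from the other WT libraries. The log2 fold change was -1.23 (SE 0.42), 2.34-fold lower in KO, with an unadjusted 95% interval of -2.24 to -0.21 (edgeR adjusted p = 0.168). Without WT replicate 2 the log2 fold change was -0.54 (edgeR adjusted p = 0.0973). The 2 genes whose pattern was most like that of Kcnk3, by the root-mean-square difference of centred log2 CPM over the 6 libraries among 12643 annotated loci, were Fblim1 (difference 0.0884) and Tifa (0.161). Fblim1 had 34.9 CPM in WT replicate 2 and 7.17 to 12.0 CPM in the other libraries.

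The deposited Kcnk3 locus reaches 84912 bases beyond the end of the gene in GENCODE M21, an annotation of the same genome build. The counts, fold change and level per kilobase given for Kcnk3 are those of this whole locus, and the share of them that comes from Kcnk3 itself was not tested. The genes Slc35f6 and Cenpa lie within the extra part on the same strand, and an unnamed transcript on that strand starts in it and runs past the end of the locus. The counts of these 3 together came to 8.72% of those of Kcnk3 over the 6 libraries. The unnamed transcript (chromosome 5, 30632064 to 30835416) had 83.9, 55.0 and 52.2 CPM in WT and 21.3, 25.7 and 23.2 CPM in KO. It did not overlap between the groups, and WT replicate 2 did not stand apart in it. It fell by 1.47 on the log2 scale (SE 0.20, edgeR adjusted p = 0.0324 in the fit that kept unnamed loci), and was not called when WT replicate 3 or any 1 of the KO libraries was left out (edgeR adjusted p from 0.0902 to 0.148). Gm9899, a locus on the opposite strand that overlaps the start of Kcnk3, went the other way, with 17.8, 14.1 and 13.3 CPM in WT and 30.6, 33.0 and 25.4 CPM in KO. By edgeR it rose 1.97-fold (log2 fold change 0.98, SE 0.16, edgeR adjusted p = 0.0464) and was called in 1 of the 6 fits that left out a library, that without WT replicate 1 (edgeR adjusted p = 0.0399). These neighbours were chosen after their values were seen, and whether the counting used strand is not given in the sources used here, so reads of Gm9899 and Kcnk3 may not be told apart where they overlap.

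**Figure D3:**
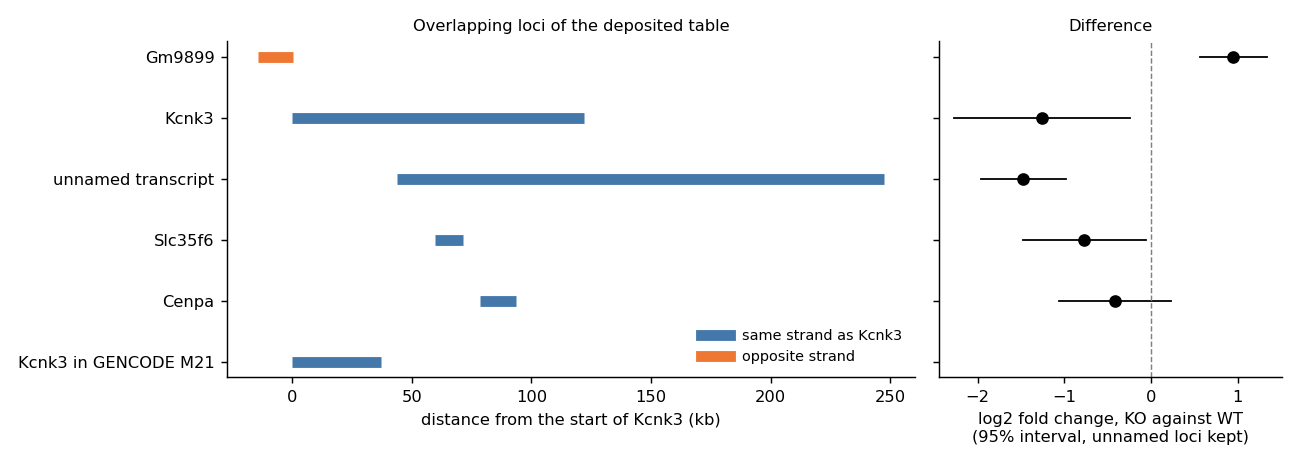
Left, loci of the deposited table that overlap Kcnk3 and the extent of Kcnk3 in GENCODE M21, by distance from the start of Kcnk3 in kb, with the same strand in blue and the opposite strand in orange. Right, log2 fold change of KO against WT with its unadjusted 95% interval in the fit that kept unnamed loci, where the unnamed transcript is at -1.47 and Gm9899 at 0.95.

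Kcnk9 (chromosome 15, 72501089 to 72547822) was at 139, 164 and 284 CPM in WT and at 395, 197 and 302 CPM in KO. The groups overlapped, since KO replicate 2 lay below WT replicate 3. Its log2 fold change was 0.61 (SE 0.35) with an unadjusted 95% interval of -0.23 to 1.44 (edgeR adjusted p = 0.353). It was 0.35 without KO replicate 1 and 0.97 without WT replicate 3. The ratio of Kcnk3 to Kcnk9 counts within a library, which does not depend on scaling between libraries, was 5.81, 12.2 and 2.26 in WT and 1.25, 2.54 and 1.59 in KO. WT replicate 3 lay below KO replicate 2, so the groups overlapped in this ratio. The mean log2 ratio in KO minus that in WT was -1.66, with an exact two-sided permutation p of 0.2, where 3 against 3 libraries cannot go below 0.1, and 0.3 after adjustment over the 3 ratios tested. The genes most like Kcnk9 by the same measure were Zfp993 (difference 0.152) and Neurl1b (0.158).

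Of the other K2P channel genes, 6 of 12 passed the count filter and none was called by edgeR, with 3 log2 fold changes above 0 and 3 below. Unadjusted p was under 0.05 for 2 of the 6 and for 22.2% of all tested loci. Kcnk2, a mechanically gated K2P channel, averaged 34.03 ± 4.98 CPM in WT against 56.6 ± 4.13 in KO (SD, n = 3 each), with KO above WT in every library (log2 fold change 0.73, edgeR adjusted p = 0.0516). Kcnk5, an acid-sensitive K2P channel, was at 63.0 ± 28.2 and 22.9 ± 6.94 CPM and overlapped (-1.46, edgeR adjusted p = 0.117). Kcnk6 and Kcnk13 had log2 fold changes of -0.63 and 0.44, and both overlapped.

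Kcnj5 encodes an inward rectifier potassium channel that opens on G protein signals. Kcnj5 (chromosome 9, 32314707 to 32344350) had 51, 49 and 44 counts in WT and 111, 155 and 260 in KO, the fewest of the 8 members. In CPM this was 0.504, 0.379 and 0.549 in WT and 1.01, 2.03 and 2.01 in KO. Each KO library was above each WT library, and KO replicate 1 was the lowest of the KO libraries. Its log2 fold change of 1.82 (SE 0.35), 3.53-fold, was the largest in size among the 8 members in this fit, with an unadjusted 95% interval of 0.98 to 2.66 (edgeR adjusted p = 0.0578). Scaled to equal counts of the reference RNA Rn7sk or to total counts alone, Kcnj5 was called (edgeR adjusted p = 0.0360 and 0.0406), but it was not in any of the 6 fits that left out a library (0.0939 to 0.176). The genes most like it were Hoga1 (difference 0.23) and Epb41l4b (0.291), of which Epb41l4b was itself called (edgeR adjusted p = 0.0336).

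Among the other inward rectifier genes 11 of 14 passed the filter and none was called by edgeR, with 6 log2 fold changes above 0 and 5 below. Unadjusted p was under 0.05 for 5 of the 11 and for 22.2% of all tested loci. Kcnj6 and Kcnj9, which encode further G protein-gated channels, averaged 6.14 ± 1.58 and 0.16 ± 0.0138 in WT and 10.05 ± 1.55 and 0.284 ± 0.0429 in KO, all in CPM (SD, n = 3 each). Both were higher in every KO library (log2 fold changes 0.71 and 0.84, edgeR adjusted p = 0.148 and 0.198). Kcnj10, known from glial cells, and Kcnj4 were lower in every KO library, with log2 fold changes of -0.63 and -0.91 (edgeR adjusted p = 0.139 and 0.176).

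**Figure D4:**
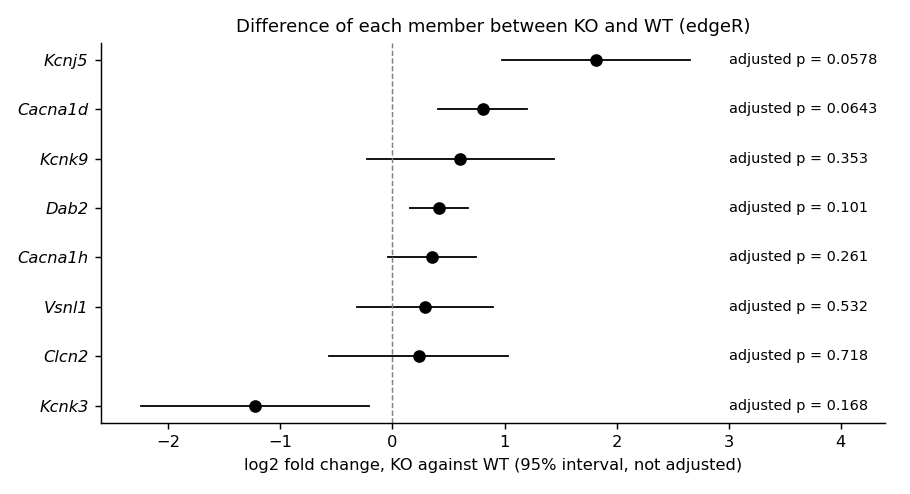
Log2 fold change of KO against WT for each member (dot) with its unadjusted 95% interval (line) and the edgeR adjusted p. Kcnj5 is at 1.82 and Kcnk3 at -1.23, and all adjusted p lie above 0.05.

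The voltage-gated calcium channels of the group are Cacna1d, the pore subunit of an L-type channel that opens at low voltage, and Cacna1h, the pore subunit of a T-type channel. Cacna1d (chromosome 14, 30039939 to 30491455) was at 37.0, 50.01 and 40.9 CPM in WT and at 77.7, 84.3 and 61.3 CPM in KO. All KO libraries lay above all WT libraries. KO against WT, the log2 fold change was 0.80 (SE 0.16), 1.75-fold, with an unadjusted 95% interval of 0.41 to 1.201 (edgeR adjusted p = 0.0643). Of the 6 fits that left out a library, Cacna1d was called in 1, that without WT replicate 2 (edgeR adjusted p = 0.0497). In the others the edgeR adjusted p was 0.101 to 0.211. Scaled to Rn7sk it was called (0.0391), in a fit where the median over all loci moved to 0.19. With total counts alone it was not (0.0533). Chdh and Dcp1a overlap it on the opposite strand, and the counts of these whole loci equalled 71.7% of its own. The share of those counts that lies in the overlaps was not measured. Reads in the overlaps cannot be assigned if strand was not used in counting. The most similar genes were Unc5a (difference 0.0433) and Ank3 (0.0465).

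Cacna1h (chromosome 17, 25374081 to 25433783) was at 233, 184 and 239.7 CPM in WT and at 252, 252 and 336 CPM in KO. The groups did not overlap, but WT replicate 3 and the lowest KO library were close. The log2 fold change was 0.35 (SE 0.16) with an unadjusted 95% interval of -0.04 to 0.75 (edgeR adjusted p = 0.261). Without KO replicate 3 it was 0.20. The ratio of Cacna1h to Cacna1d counts was 6.29, 3.69 and 5.87 in WT and 3.24, 2.98 and 5.48 in KO, which overlapped, with a mean log2 difference of -0.45 (exact two-sided permutation p = 0.2, adjusted over the 3 ratios 0.3). The genes most like Cacna1h were Camk2n2 (difference 0.0571), an inhibitor of calcium/calmodulin-dependent kinase, and Adamts17 (0.0784).

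Among 15 measured loci of 16 other voltage-gated calcium channel subunits, 2 rose by the edgeR test and none fell, where 1.41% of all tested loci rose. Log2 fold changes were above 0 for 13 and below 0 for 2, with a median of 0.54 against -0.0063 over all tested loci. In 6 of the 15 every KO library was above every WT library, as in 16.3% of all tested loci. Cacna2d2, an auxiliary subunit that brings channels to the membrane, had 5.71, 8.84 and 6.62 CPM in WT and 26.5, 25.9 and 24.6 CPM in KO. The KO libraries lay close together and far above WT, a 3.63-fold rise (log2 fold change 1.86, SE 0.18, edgeR adjusted p = 0.0161). Cacna1g, the pore of another T-type channel, had 0.395, 0.449 and 0.274 CPM in WT and 1.07, 1.23 and 1.24 CPM in KO. It rose 3.15-fold (log2 fold change 1.65, SE 0.27, edgeR adjusted p = 0.0453). Of the fits that left out a library, Cacna2d2 was called in those without WT replicate 1 or WT replicate 2 and Cacna1g in that without WT replicate 2, with the largest edgeR adjusted p at 0.0929 and 0.158. Cacna1b, the pore of N-type channels of neurons and chromaffin cells, and Cacnb1 had log2 fold changes of 0.76 and 0.59 and were not called (edgeR adjusted p = 0.0774 and 0.0781).

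Calcium channels are also used by chromaffin cells of the adrenal medulla, and markers of those cells were higher in KO. Of 13 measured chromaffin markers, 4 rose by the edgeR test (Dbh, Chga, Phox2a and Hand2), and 12 were higher in every KO library, with 16.3% of all tested loci so. The summed level of the 13 markers was 2898 to 4256 CPM in WT and 5909.8 to 6619 CPM in KO. Each of those 4 was called in 1 of the 6 fits that left out a library, that without WT replicate 2. Of 9 measured neuronal markers 3 rose by the edgeR test (Tubb3, Nefm and Stmn2), where 1.41% of all tested loci rose. Log2 fold changes were above 0 for 7 of these 9 markers and below 0 for 2. The summed level of the 9 was 104 to 149 CPM in WT and 211 to 235 CPM in KO. The part of these cells in the values of Cacna1d, Cacna2d2, Cacna1g and Kcnj5 was not tested.

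Clcn2 encodes a chloride channel that opens on hyperpolarisation. Clcn2 (chromosome 16, 20702964 to 20717746) was at 66.4, 37.4 and 59.5 CPM in WT and at 62.4, 89.4 and 40.2 CPM in KO. The groups overlapped over most of their range. The log2 fold change was 0.23 (SE 0.33), with an unadjusted 95% interval of -0.57 to 1.03, whose upper end is a 2.05-fold rise (edgeR adjusted p = 0.718). Fam131a and Polr2h overlap it on the opposite strand, with counts over their whole loci equal to 25.5% of its own. The share of those counts in the overlaps was not measured. Without KO replicate 2 its sign turned (-0.09). The genes most like Clcn2 were Nr0b1 (difference 0.0932), a nuclear receptor of the adrenal cortex that represses NR5A1, and Wdyhv1 (0.122). Of the other chloride channels of the ClC family and their partners, 7 of 12 were measured and none was called by edgeR. Unadjusted p was under 0.05 for 1 of the 7 and for 22.2% of all tested loci. Clcn4 averaged 126 ± 11.5 CPM in WT against 98.3 ± 6.3 in KO (SD, n = 3 each), lower in every KO library (log2 fold change -0.36, edgeR adjusted p = 0.122). Clcn7, of lysosomes, was also lower in every KO library (-0.34), while Clcn5 (0.31) overlapped. Clcn1, the chloride channel of skeletal muscle, went the other way at very low levels, with 0.148, 0.0697 and 0 CPM in WT and 0.181, 0.328 and 0.17 CPM in KO. Its KO libraries lay above its WT libraries, and it was not called (edgeR adjusted p = 0.361).

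Dab2 encodes an adaptor of clathrin-mediated endocytosis and is used as a marker of the zona glomerulosa in rodents. Dab2 (chromosome 15, 6299788 to 6441059) was at 722, 753 and 819 CPM in WT and at 955, 1013 and 1095 CPM in KO. The KO libraries all lay above the WT libraries, and the spread within each group was small. The log2 fold change was 0.42 (SE 0.11), 1.34-fold, with an unadjusted 95% interval of 0.16 to 0.68 (edgeR adjusted p = 0.101). With total counts alone it was called (log2 fold change 0.65, edgeR adjusted p = 0.0428), in a fit where the median over all loci moved to 0.22. The most similar patterns were those of Tyro3 (difference 0.0297), a receptor tyrosine kinase, and Igsf3 (0.0334). Dab2 is also known from macrophages and stroma. The summed level of 8 macrophage markers was 166 to 431 CPM in WT and 158 to 205 CPM in KO, and that of 9 capsule and stroma markers 405 to 521 and 324 to 405 CPM. The part of these cells in the value of Dab2 was not tested.

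Vsnl1 encodes visinin-like 1, a neuronal calcium sensor protein known from the human zona glomerulosa. Vsnl1 (chromosome 12, 11325242 to 11436613) was at 42.1, 24.4 and 41.6 CPM in WT and at 55.1, 38.9 and 38.2 CPM in KO. The groups overlapped, with WT replicate 2 the lowest library and KO replicate 1 the highest. Its log2 fold change was 0.29 (SE 0.25) with an unadjusted 95% interval of -0.32 to 0.90 (edgeR adjusted p = 0.532). Without WT replicate 2 it was 0.093, and without KO replicate 1 it was 0.097. The ratio of Dab2 to Vsnl1 counts was 17.2, 30.9 and 19.7 in WT and 17.3, 26.1 and 28.7 in KO, a mean log2 difference of 0.10 (exact two-sided permutation p = 0.9). The genes most like Vsnl1 were Zfp932 (difference 0.0827) and Abtb2 (0.0932). Among 11 measured loci of 12 other neuronal calcium sensor genes none was called by edgeR. Unadjusted p was under 0.05 for 2 of the 11 and for 22.2% of all tested loci. Log2 fold changes were above 0 for 9 and below 0 for 2, with a median of 0.38. Ncs1 averaged 11.3 ± 0.72 CPM in WT against 16.9 ± 0.842 in KO (SD, n = 3 each), and Kcnip1, a partner of voltage-gated potassium channels, at 14.7 ± 3.26 and 25.8 ± 3.19. Both were higher in every KO library (edgeR adjusted p = 0.0532 and 0.0802), as was Ncald (log2 fold change 0.26), while Rcvrn (1.34) overlapped.

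The other markers of the zona glomerulosa could be read only in part. Cyp11b2 shared 1 deposited locus with Cyp11b1, the glucocorticoid enzyme of the zona fasciculata, Agtr1b shared one with Cpb1, and Hsd3b6 shared one with further Hsd3b genes and Hao2. The merged Cyp11b1/Cyp11b2 locus differed by -0.63 on the log2 scale (SE 0.24, adjusted p = 0.199 by edgeR) and was lower in every KO library. So was the merged Hsd3b locus, at -0.78 (SE 0.28, adjusted p = 0.177), while Cpb1/Agtr1b overlapped between the groups at 0.18 (SE 0.15, adjusted p = 0.526). Of the 6 markers with a locus of their own none was called by edgeR. Unadjusted p was under 0.05 for 1 of the 6 and for 22.2% of all tested loci. Log2 fold changes were above 0 for 4 and below 0 for 2, with a median of 0.27. Without KO replicate 3 this median was 0.14, without WT replicate 3 it was 0.43, and with total counts alone 0.50. Axin2, a target of Wnt signals, averaged 38.7 ± 12.3 CPM in WT against 57.5 ± 5.88 in KO (SD, n = 3 each, log2 fold change 0.57, edgeR adjusted p = 0.211). Wnt4, Shh and Lef1, signals and a factor of the outer cortex, had log2 fold changes of 0.31, 0.38 and 0.24, and all 4 overlapped between the groups. The 2 markers below 0 were Agtr1a (-0.39) and Smoc2 (-0.05), which overlapped as well. Both were named after their values were seen. All 6 measured zona fasciculata markers had log2 fold changes below 0, from -1.10 (Star) to -0.20 (Akr1b7), the last smaller than the 0.22 by which total counts alone moved the median of all loci. They had a summed level of 14690.5 to 25242 CPM in WT and 9953 to 12417 CPM in KO, and none was called by edgeR. Unadjusted p was under 0.05 for 2 of them and for 22.2% of all tested loci.

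Angiotensin II acts through Agtr1a, a receptor coupled to Gq, and the calcium signalling below it. Agtr1a, chosen after its values were seen, was at 272, 230.2 and 263 CPM in WT and at 286, 253 and 44.8 CPM in KO. KO replicate 3 stood apart, and the other 2 KO libraries lay within or just above the WT range (log2 fold change -0.39, SE 0.60, edgeR adjusted p = 0.743). The same library held 2617 CPM over 4 hepatocyte markers, against at most 14.1 CPM in the others, and the part of this in Agtr1a was not tested. Of 37 measured loci of 39 in the angiotensin to calcium list, 1 fell by the edgeR test and none rose. Over all tested loci 0.431% fell and 1.41% rose. The list had 18 log2 fold changes above 0 and 19 below. Its median was -0.0086 (0.22 with total counts alone, which moved the median of all loci to 0.22). Unadjusted p was under 0.05 for 9 of the 37 and for 22.2% of all tested loci. The locus that fell was Prkcd, a protein kinase C activated by diacylglycerol, at 142, 131 and 138 CPM in WT and 87.3, 82.0 and 81.5 CPM in KO. It fell 1.64-fold (log2 fold change -0.71, SE 0.08, edgeR adjusted p = 0.0182), but was not called when scaled to Rn7sk (0.0763) or when WT replicate 3 or any 1 of the KO libraries was left out (up to 0.105). Atp2b4, a calcium pump, was higher in every KO library (log2 fold change 0.37, edgeR adjusted p = 0.0697), and Camkk2, a kinase that activates calcium/calmodulin-dependent kinases, and Atf1, a transcription factor of their pathway, were lower (-0.47 and -0.41, edgeR adjusted p = 0.0713 and 0.0744).

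**Figure D5:**
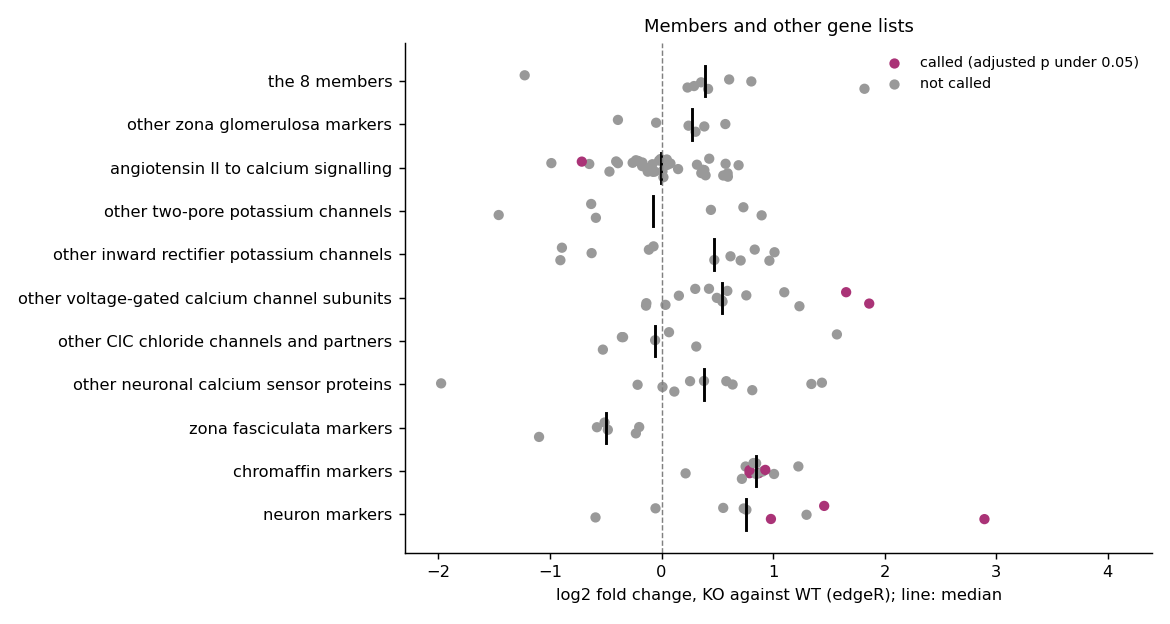
Log2 fold change of KO against WT for the 8 members, the 7 other gene lists and 3 lists of cell type markers, with a dot for each measured locus, called loci in purple and a line at the median. The medians are 0.39 for the members, 0.54 for other voltage-gated calcium channel subunits, 0.85 for chromaffin markers and -0.50 for zona fasciculata markers.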

How the data were processed

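Per the labels' protocols, RNA depleted of rRNA was made into libraries that keep strand and read in pairs. The submitters' processing notes name GRCm38 and the tools STAR, StringTie, Trimmomatic, Picard and edgeR; how reads were counted and whether by strand is not given in the sources used here. A deposited table held raw counts per locus for 6 libraries, per the file headers, with totals of 70547288 to 130573434. The authors also deposited log2 CPM values, used in 1 alternative, log2 values relative to Rn7sk, not used, and locus and transcribed lengths.

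Loci without a gene name (1.39% to 2.04% of counts) were left out of library sizes. Counts were filtered with filterByExpr, normalised by TMM, and compared in edgeR 4.0.16 (R 4.3.3, glmQLFit with robust estimation, glmQLFTest, two-sided), adjusted over 21358 loci by the Benjamini-Hochberg method, and called under 0.05. CPM values use TMM-scaled sizes. SE is the log2 fold change divided by the square root of F, and 95% intervals are unadjusted. The script was tested on simulated data. Counts per member and library ran from 44, for Kcnj5, whose counting error was then 15.1%, to 258232. Intervals and counting errors do not cover PCR duplicates. A listed gene was counted only where its locus held no protein-coding gene outside the list.

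The text names the members, Armc5, called list members and those with the smallest p (up to 4 a list), and the 2 annotated loci (mean of at least 1 CPM, pseudocount 0.01) most like each member. Members and lists were chosen with earlier results of these data known. The alternatives were other scalings, filters, DESeq2 1.42.0, limma 3.58.1, the replicate block and leaving out libraries.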

Additional observations from a re-analysis of the deposited data

How the results depend on the processing

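All 8 members kept their direction in each of the scalings, filters and tools run and when any 1 library was left out, except Clcn2, whose log2 fold change ranged from -0.086 to 0.48 when a library was left out and was below 0 without KO replicate 2. The number of members called, 0 of 8 with edgeR and TMM scaling, was 2 with total counts alone (Dab2, Kcnj5) and 2 with equal Rn7sk counts (Kcnj5, Cacna1d). It was 3 with limma-trend on the deposited log2 CPM, which carry no TMM scaling (Dab2, Kcnj5, Cacna1d). With DESeq2 it was 4, with limma-voom and sample quality weights 1 (Cacna1d), and when a library was left out 0 to 1. Non-overlapping members numbered 5 or 6 under each scaling and left-out library. With TMM scaling and all libraries they were 5 of 8, and 30.5% of all tested loci did not overlap. That share was not computed for the other settings, and groups with fewer libraries separate more easily. Of the 7 other lists, 3 loci were called; 8 were with total counts alone, 8 with equal Rn7sk counts, 5 with at least 10 CPM required, 0 with the replicate block, 0 without WT replicate 1 and KO replicate 3 together, 21 with DESeq2, 9 with limma-trend, 12 with limma-voom, and 0 to 8 when a library was left out. Over all loci the 393 calls (76.6% higher) became 674 (94.8% higher), 711 (94.1%), with total counts alone and equal Rn7sk counts, 5 with the replicate block, 16 without WT replicate 1 and KO replicate 3, 2626 (60.5%) with DESeq2, 975 (94.5%) with limma-trend and 1503 with limma-voom, and 15 (without KO replicate 1) to 644 (without WT replicate 2) when a library was left out; without WT replicate 1 the calls were 203 higher and 180 lower (53.0% higher). The median of all loci was 0.22 and 0.19 with total counts alone and equal Rn7sk counts. Relative to this median Dab2 was at 0.42 in both and Kcnj5 at 1.84 and 1.83. With limma-trend on the deposited log2 CPM the median of all loci was 0.22, as with total counts alone, so its calls are not a separate check of that scaling. The medians of the angiotensin, K2P and ClC lists, just below 0, turned to 0.22, 0.13 and 0.17 with total counts alone. The log2 ratio difference of Dab2 to Vsnl1 turned to -0.071 without WT replicate 1 and -0.041 without KO replicate 3, with a range of -0.071 to 0.35; that of Kcnk3 to Kcnk9 ranged from -2.29 to -1.08 and that of Cacna1h to Cacna1d from -0.73 to -0.29. Deviations of same-numbered libraries had correlations of 0.038, -0.03 and -0.107 over 5000 loci, and those of other WT and KO libraries -0.078 to 0.097. With 3 libraries in each group these values cannot decide whether the numbers pair the samples, and the labels do not state a pairing. Kcnj5 was not measured with at least 10 CPM required. The leave-one-out fits of the unnamed transcript were chosen after seeing the data. The cause of these changes was not tested. The few counts of Kcnj5 limit its precision.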
